A study of Mus musculus with 24 samples.

Results

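The genes described here are 46 mouse genes of the integrated stress response and of amino acid supply, out of 25385 gene symbols with expression values. They were chosen by symbol, with earlier results of these data known. The list holds 40 genes known as targets or partners of the transcription factor ATF4. The other 6 are genes for folding and quality control in the endoplasmic reticulum. All 46 were found. Of these, 44 reached at least 1 RPKM (reads per kilobase of transcript, scaled to the mapped reads of a library) in at least 3 libraries and were tested, 38 of the ATF4 type and 6 of the endoplasmic reticulum. Cbs, which makes cystathionine, and Slc7a3, a transporter of cationic amino acids, did not reach that level, with group means of 0.0817 to 0.670 and 0.180 to 0.690 RPKM.

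The study measured RNA from mouse mesenchymal stem cells of the bone marrow, grown from cryopreserved stock in MEMα with fetal bovine serum. Cells were taken at day 0 without differentiation, after 7 or 15 days in osteogenic medium (β-glycerophosphate and ascorbic acid), or after 7 days in adipogenic medium (insulin, indomethacin and dexamethasone). In each of these 4 states, 3 libraries came from cells given ethanol vehicle for the last 24 h and 3 from cells given 100 nM 1,25-dihydroxyvitamin D3 (VD3, the active hormone), which makes 24 libraries in 8 groups. Whether the 3 libraries of a group are separate cultures is not stated in the labels, and the p-values rest on the scatter among these libraries, which may be technical.

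The integrated stress response starts when kinases that sense unfolded protein, missing amino acids, double-stranded RNA or missing heme phosphorylate the translation factor eIF2. Most translation then slows, while ATF4 is made more efficiently from its mRNA and turns on genes that make, import and charge amino acids, together with genes such as Ddit3 (CHOP), Trib3 and Chac1. The unfolded protein response of the endoplasmic reticulum shares one of these kinases and also acts through XBP1 and ATF6, which raise the chaperones. Osteoblasts secrete collagen rich in glycine and proline, and adipocytes build up lipid at the same organelle. Since ATF4 is controlled largely at translation, Atf4 mRNA in these libraries is not a measure of the protein.

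Libraries held an estimated 7.12 to 46.7 M reads. Markers of the labelled states moved as the labels say: the summed RPKM of 8 adipocyte markers was 30039 to 32039 in adipogenic vehicle libraries and 47.4 to 443 in the other vehicle libraries, and that of 9 osteoblast markers was 713 to 849 in osteogenic and 69.0 to 153 in the other vehicle libraries. The summed level of 8 leukocyte markers was at most 17.7 RPKM in every library, and that of 5 endothelial markers was 10.5 to 14.4 in osteogenic day 15 libraries and at most 6.27 elsewhere. Among 1497 genes of olfactory, vomeronasal and taste receptors, which marrow cells are not known to use, the median was 3.39 to 4.93 RPKM in 5 of the 6 day 0 libraries, which were also the shallowest with 7.12 to 11.0 M reads, and 0.208 to 1.30 RPKM in the other 19 libraries. The mean of that median over the day 0 vehicle libraries was 4.20 ± 0.714 RPKM (SD, n = 3), and 13 of the 44 tested members lay below it there: Atf3, Atf5, Trib3, Chac1, Sesn2, Cth, Pycr1, Slc7a11, Slc7a5, Slc7a1, Slc6a9, Stc2 and Fgf21. In the comparison of osteogenic days 7 and 15, which uses no day 0 library, 6 of the 13 were higher on day 15: Atf3 (log2 difference 1.70), Atf5 (1.41), Trib3 (3.37), Chac1 (1.66), Slc6a9 (0.87, adjusted p = 0.000958) and Stc2 (0.70, adjusted p = 0.00989). The Stc2 call was lost without osteogenic day 7 replicate 1 (0.62) or osteogenic day 15 replicate 3 (0.60). The other 7 did not pass: Sesn2 (0.03), Cth (0.36), Pycr1 (-0.05), Slc7a11 (0.27), Slc7a5 (0.36), Slc7a1 (0.32) and Fgf21 (0.09), with adjusted p from 0.157 to 0.985. The RNA is from bulk cultures, in which fewer cells of a type and less RNA per cell cannot be told apart.

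Promoter windows of 250 bases before to 50 bases after the start site were available for 40 of the 46 members (RefSeq, build GRCm38.p6). The expression reads were aligned to mm9, and no coordinate was carried between the builds. The windows were searched on both strands for the letters TGATGNAA, the core of the composite element that ATF4 and C/EBP proteins bind. They occurred in 12 of 34 ATF4-type members (35.3%) and 1 of 6 endoplasmic reticulum members, against 4.51% of the 27025 genes with a window. The ATF4-type members were listed as known targets or partners of ATF4, so their share is not independent of that choice. The sequences below are from some of the members with a match before the start site. Atf4 and Ddit3 had no match, and that of Trib3 lies after its start site. Capitals mark the matched letters, and each sequence is written 5′ to 3′ on the strand of its gene. Atf3 (chr1:191183406-191183459, minus strand), Chac1 (chr2:119351033-119351086, plus strand), Nupr1 (chr7:126625543-126625596, minus strand), Asns (chr6:7693210-7693248, minus strand), Aars (chr8:111033714-111033767, plus strand) and Vldlr (chr19:27216804-27216857, plus strand) each show 1 match, and Slc7a11 (chr3:50443623-50443695, minus strand) shows 2, in opposite orientations. The Aars window holds a second match after its start site, which is not shown.
Atf3: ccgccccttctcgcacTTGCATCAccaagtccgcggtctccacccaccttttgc
Chac1: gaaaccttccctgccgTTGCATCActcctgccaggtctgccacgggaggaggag
Nupr1: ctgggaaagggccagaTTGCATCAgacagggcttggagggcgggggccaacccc
Asns: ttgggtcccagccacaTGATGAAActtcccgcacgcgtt
Aars: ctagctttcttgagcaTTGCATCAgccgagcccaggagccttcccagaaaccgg
Vldlr: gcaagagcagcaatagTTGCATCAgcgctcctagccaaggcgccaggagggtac
Slc7a11: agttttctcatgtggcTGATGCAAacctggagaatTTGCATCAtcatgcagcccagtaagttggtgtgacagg

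In the endoplasmic reticulum group CCAAT and CCACG separated by 9 bases, the letters of the stress element bound by ATF6 and XBP1 with NF-Y, were found on either strand in Hspa5 (chr2:34772009-34772073, plus strand) and Hsp90b1, 2 of 6 members, against 0.137% of all genes. The shorter second form, ATTGG and CCACG separated by 1 base, was found in Herpud1 (chr8:94386301-94386417, plus strand), against 0.0444% of all genes. Herpud1 is the member that carries both this element and an ATF4-type match, so its sequence is shown beside that of Hspa5, with the matched letters again in capitals.
Herpud1: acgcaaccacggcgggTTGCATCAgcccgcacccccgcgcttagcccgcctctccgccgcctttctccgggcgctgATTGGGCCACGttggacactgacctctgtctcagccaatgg
Hspa5: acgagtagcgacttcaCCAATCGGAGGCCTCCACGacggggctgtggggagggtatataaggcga
A match describes the letters of a window and does not show that a factor was bound there. The endoplasmic reticulum members were chosen as known genes for folding and quality control, so their shares are not independent of that choice.

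In vehicle-treated cells the ATF4-type genes were higher late in osteogenic culture and in adipogenic culture than at day 0, and the endoplasmic reticulum genes were highest in adipogenic culture. The mean of 24 of the 44 tested members was highest on osteogenic day 15, that of 18 in adipogenic cells, and that of 1 each at day 0 and on osteogenic day 7. Of the 38 ATF4-type members, 23 peaked on osteogenic day 15 and 13 in adipogenic cells, while 5 of the 6 endoplasmic reticulum members peaked in adipogenic cells. Differences below are log2 differences on the scale log2(RPKM + 1) with their standard errors, which understate the change of low genes, and a gene is called where the adjusted p is under 0.05.

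**Figure D1:**
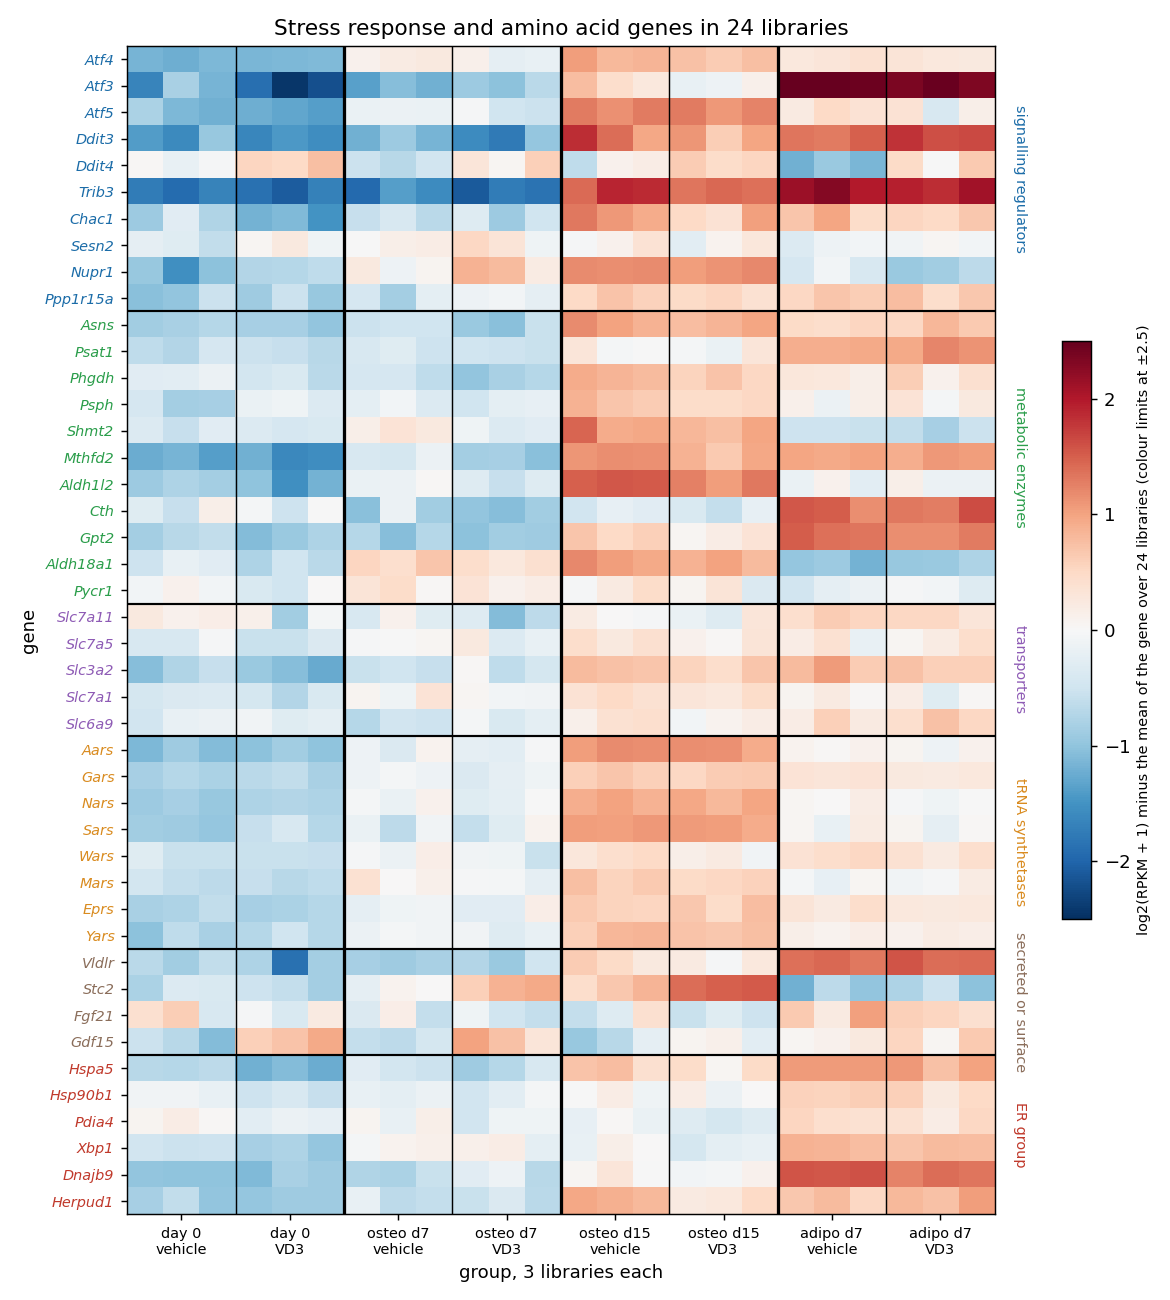
Log2(RPKM + 1) of the tested members, one row per gene and one column per library, as the difference from the gene's mean over all 24 libraries, grouped by role and by the 8 groups. Most synthetase rows are highest on osteogenic day 15, and the endoplasmic reticulum rows Dnajb9, Xbp1, Hsp90b1 and Pdia4 are highest in adipogenic libraries.

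Against day 0, 24 members were higher and 2 lower on osteogenic day 7, where 13.6% of all tested genes were higher and 50.4% lower. On osteogenic day 15, 36 were higher and 0 lower against a background of 17.5% and 53.4%; 0 members were lower at an unadjusted p under 0.05 with limma. In adipogenic cells 36 were higher and 3 lower against 13.2% and 65.5%. The day 0 vehicle libraries listed 20122 to 20956 genes at 1 RPKM or more, and the other vehicle libraries 11943 to 12947. Genes may have passed the filter for testing through day 0 libraries alone, and their part in the lower shares was not tested. The summed RPKM of 5 abundant noncoding RNAs used as a sign of RNA quality (Rn7sk, Malat1, Neat1, Rmrp and Rpph1) was 193623 to 219894 in day 0 and 80275 to 110857 in adipogenic vehicle libraries, and Rn7sk alone made 24.2% to 26.5% and 11.6% to 16.8% of the RPKM sum. The 8 stromal markers summed to 1119 to 1124 RPKM at day 0, 524 to 568 on osteogenic day 7, 243 to 252 on osteogenic day 15 and 74.4 to 89.6 in adipogenic cells. The part of either in these comparisons was not tested. The median difference of the members was 0.31, 1.32 and 0.97 in these comparisons, which share the day 0 libraries, and the median of all 21097 tested genes was -0.46, -0.55 and -0.83. After rescaling by median ratios or quantile normalization the median of all genes moved to between -0.39 and 0.06 and that of the members to between 0.59 and 1.71. Genome-wide calls then stood at 6103 higher and 7950 lower by median ratios for osteogenic day 7, at 5887 and 8517 for osteogenic day 15, and at 5223 and 9136 for adipogenic cells. After quantile normalization they were 5431 and 3716, 6128 and 4335, and 5273 and 5065, and with each library's receptor background subtracted they were 8706 and 1456, 8532 and 1779, and 5509 and 3143 of 13668 genes. Under both rescalings the members' median stayed above that of all genes. Higher calls against day 0 were kept with each library left out in 18 of 24 cases for osteogenic day 7, where Asns, Herpud1, Dnajb9, Ppp1r15a, Sesn2 and Stc2 lost them, and in 35 of 36 cases each for osteogenic day 15 (not Sesn2) and adipogenic cells (not Slc7a5). The 2 lower calls of osteogenic day 7, Ddit4 and Phgdh, were both lost. With VD3 libraries in place of vehicle, 19 of the 24 higher calls of osteogenic day 7 were kept. Those of Asns, Psph, Sars, Sesn2 and Shmt2 were lost. In the same setting 34 of 36 were kept for osteogenic day 15 and 34 of 36 for adipogenic cells.

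Within the osteogenic series, 32 members were higher on day 15 than on day 7 and 0 lower, with 0 lower at an unadjusted p under 0.05 with limma, against 6.87% and 6.47% of all genes. The members' median difference between the osteogenic days was 0.86 and that of all genes was 0.00. This comparison does not use the day 0 libraries with their higher background. Leaving out each library in turn kept 30 of the 32 calls; the exceptions were Wars and Stc2. Median-ratio rescaling and quantile normalization together kept 28 of the 32.

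Among the regulators, Atf4 itself stood at 70.6, 68.2 and 73.3 RPKM at day 0, at 173, 185 and 191 on osteogenic day 7, at 333, 282 and 290 on osteogenic day 15, and at 193, 197 and 209 in adipogenic cells. The libraries of these 4 states did not overlap, although adipogenic cells did not pass the test against osteogenic day 7 (0.13 ± 0.08, adjusted p = 0.283). That difference was called with median-ratio rescaling (0.33), quantile normalization (0.25) and in the VD3 libraries (0.38). Atf4 rose by 1.36 ± 0.08 on osteogenic day 7 (adjusted p = 6.87e-11) and by a further 0.72 ± 0.08 by day 15 (adjusted p = 2.11e-06).

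Ddit3 encodes CHOP, a factor of sustained stress. It stood at 16.4, 14.2 and 22.7 RPKM at day 0 and at 18.8, 23.2 and 19.3 on osteogenic day 7, and these 2 states overlapped. It was at 162, 119 and 88.2 on osteogenic day 15 and at 114, 110 and 128 in adipogenic cells, all above every library of the earlier states. The rise from osteogenic day 7 was 2.49 ± 0.20 to day 15 (adjusted p = 1.46e-08) and 2.47 ± 0.20 to adipogenic day 7 (adjusted p = 8.17e-10). On osteogenic day 7, where Atf4 mRNA was above day 0, Ddit3 did not pass the test against day 0 (0.21 ± 0.20, adjusted p = 0.363). It was called higher there by median-ratio rescaling (0.62, adjusted p = 0.0175) and after background subtraction (0.56, adjusted p = 0.0264).

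Trib3, a pseudokinase that binds ATF4 and CHOP, was also low in both early states and higher in both late ones. Its level was 1.13 to 2.16 RPKM in the 6 vehicle libraries of day 0 and osteogenic day 7, then 20.9, 29.8 and 29.0 on osteogenic day 15 and 34.9, 39.3 and 31.3 in adipogenic cells. The late libraries lay above all early ones, with differences from osteogenic day 7 of 3.37 ± 0.15 and 3.77 ± 0.15. The day 0 level of Trib3 lay below the receptor background, and its difference of osteogenic day 7 from day 0 was called with quantile normalization (1.15) and background subtraction (1.19) and in no other setting. Chac1, which degrades glutathione, was at 1.68 to 2.23 RPKM on osteogenic day 7, at 9.54, 8.06 and 7.13 on osteogenic day 15 and at 5.91, 7.47 and 4.81 in adipogenic cells (1.66 ± 0.20 and 1.26 ± 0.20 above osteogenic day 7). Chac1 on osteogenic day 7 was called above day 0 with quantile normalization (1.10), background subtraction (1.36) and in the VD3 libraries (0.68). Ppp1r15a encodes GADD34, the phosphatase subunit that reverses eIF2 phosphorylation. It was at 9.52 to 14.9 RPKM on osteogenic day 7 and at 25.6 to 29.9 in the 6 late vehicle libraries, a rise of 1.10 ± 0.14 and 1.12 ± 0.14.

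**Figure D2:**
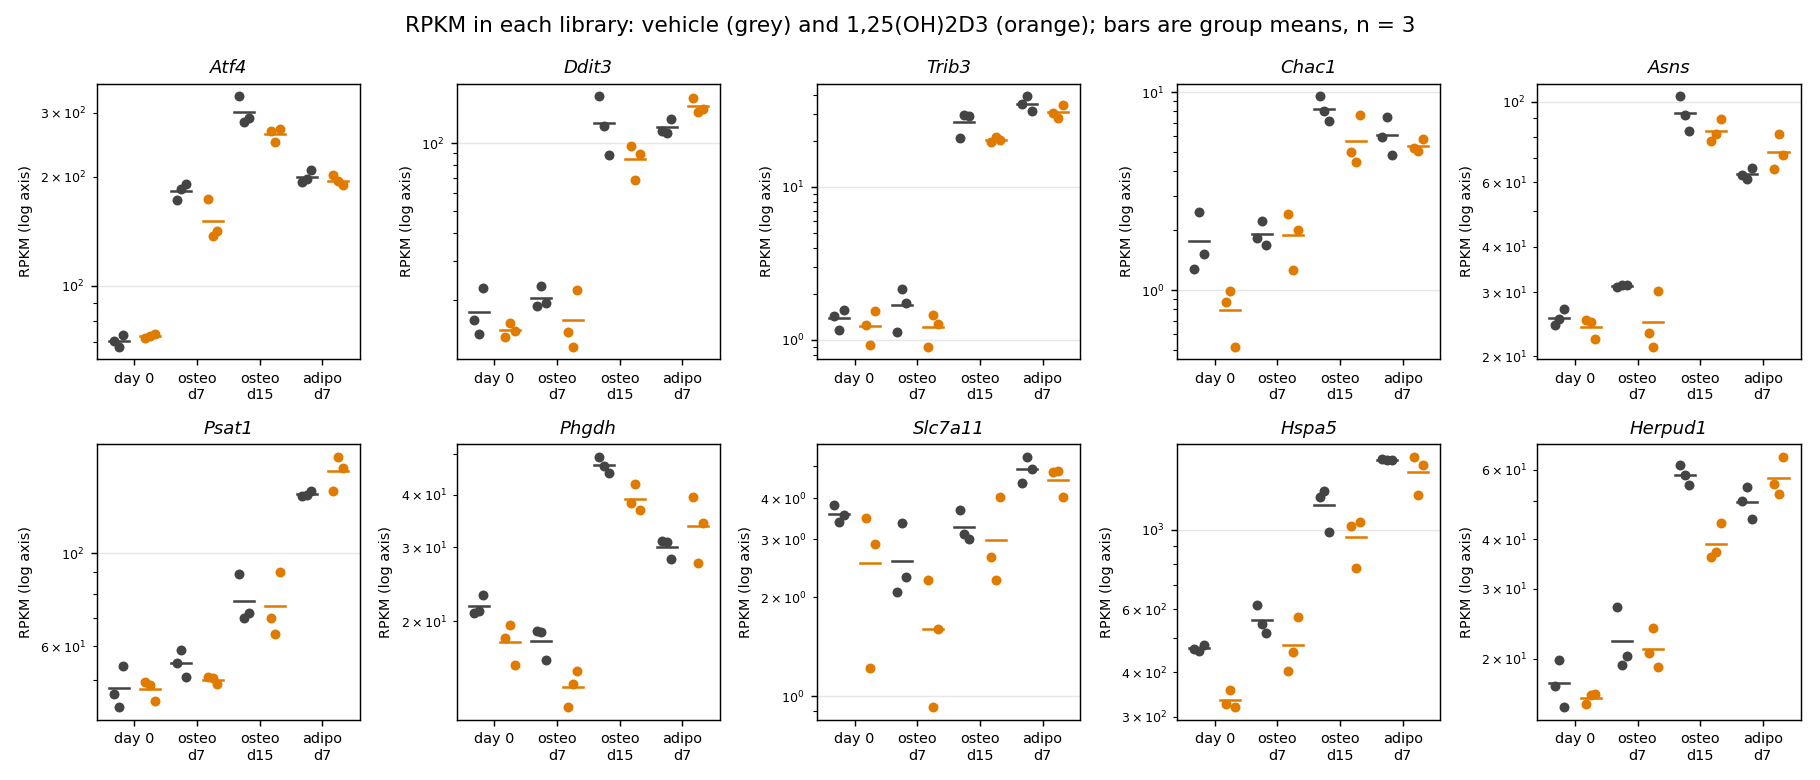
RPKM of named members in every library on a log axis, by state, with vehicle and VD3 libraries as separate points and the group mean as a line. Atf4 is above day 0 on osteogenic day 7, while the plotted RPKM of Ddit3 and Trib3 there is near that of day 0, where Trib3 lies below the receptor background, and higher in the late osteogenic and adipogenic libraries.

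Atf3, another stress factor of this family, was highest in adipogenic cells. It was at 2.28, 3.02 and 2.67 RPKM on osteogenic day 7, 13.4, 10.4 and 9.10 on osteogenic day 15, and 51.2, 58.0 and 44.7 in adipogenic cells. Adipogenic cells exceeded osteogenic day 15 by 2.14 ± 0.18 (adjusted p = 1.07e-09) and osteogenic day 7 by 3.83 ± 0.18, with no overlap. Atf5, a related factor tied to mitochondrial stress, was lower in adipogenic cells than on osteogenic day 15, with 24.5, 21.8 and 24.6 RPKM on osteogenic day 15 and 11.0, 13.6 and 12.3 in adipogenic cells (-0.89 ± 0.16, adjusted p = 5.90e-05). At matched day 7 it was higher in adipogenic cells (0.52 ± 0.16, adjusted p = 0.0104), against 8.19 to 8.32 RPKM on osteogenic day 7, a call lost without adipogenic replicate 2 (0.45), with background subtraction (0.49) and with the largest transcript of each symbol (0.23). Nupr1, a small stress-induced chromatin protein, was at 133, 131 and 134 RPKM on osteogenic day 15 and 43.3, 55.2 and 43.8 in adipogenic cells (-1.47 ± 0.15, adjusted p = 3.32e-08). Against osteogenic day 7, at 53.0 to 69.2 RPKM, Nupr1 did not pass the test (-0.36 ± 0.15, adjusted p = 0.0746).

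Ddit4 encodes REDD1, an inhibitor of the growth kinase mTORC1, and did not follow the others. It was at 9.80, 8.24 and 9.41 RPKM at day 0, 5.77, 10.4 and 11.0 on osteogenic day 15, and 3.60, 4.58 and 3.80 in adipogenic cells. The adipogenic libraries lay below all of these, by -1.03 ± 0.18 against day 0 (adjusted p = 6.08e-05) and -0.97 ± 0.18 against osteogenic day 15 (adjusted p = 0.000133). The difference from day 0 was -0.49 and no longer called when each library's receptor background was subtracted. Sesn2, which reports leucine to the same kinase, stayed between 2.90 and 6.62 RPKM in every vehicle library.

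The enzymes of amino acid synthesis were mostly higher on osteogenic day 15. Asns makes asparagine and is a standard reporter of ATF4. It was at 31.0, 31.4 and 31.4 RPKM on osteogenic day 7, 104, 92.0 and 82.9 on day 15, and 62.8, 61.3 and 65.8 in adipogenic cells. The 3 states did not overlap, and the rise over the osteogenic days was 1.53 ± 0.11 (adjusted p = 1.08e-09). Of the 11 tested enzymes, 9 were higher on osteogenic day 15 than on day 7, and against osteogenic day 15 the adipogenic cells had 3 higher and 6 lower.

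The 3 enzymes of serine synthesis differed between adipogenic cells and osteogenic day 15 in both directions. Phgdh, its first enzyme, stood at 18.9, 18.8 and 16.2 RPKM on osteogenic day 7, 49.3, 47.0 and 45.0 on osteogenic day 15 and 31.1, 30.9 and 28.2 in adipogenic cells. Psat1, the second enzyme, stood at 55.0, 58.7 and 50.7, then 89.3, 70.2 and 72.0, and at 137, 138 and 140 in adipogenic cells. Psph, the last enzyme, was at 24.8, 21.8 and 20.7 RPKM on osteogenic day 15 and 14.4, 11.7 and 14.5 in adipogenic cells. In adipogenic cells relative to osteogenic day 15, Phgdh was lower by 0.63 ± 0.11 and Psph by 0.69 ± 0.13 (log2 differences of -0.63 and -0.69), and Psat1 was higher by 0.84 ± 0.11, with no overlap for any of them. At matched day 7, Phgdh (0.71 ± 0.11, adjusted p = 1.11e-05) and Psat1 (1.32 ± 0.11, adjusted p = 1.15e-09) were both higher in adipogenic cells, and Psph did not pass (0.26 ± 0.13, adjusted p = 0.126, against 10.1 to 12.4 RPKM on osteogenic day 7). Against osteogenic day 15 the Phgdh and Asns differences fell short of the test after median-ratio rescaling (-0.40 and -0.30).

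Of the 3 mitochondrial one-carbon enzymes, 2 were lower in adipogenic cells than on osteogenic day 15. Shmt2, which turns serine into glycine, was at 32.5, 22.3 and 22.8 RPKM on osteogenic day 15 and at 7.57, 7.49 and 7.31 in adipogenic cells, a difference of -1.65 ± 0.12 (adjusted p = 9.61e-11). Aldh1l2, which oxidises formyl-tetrahydrofolate, was at 37.6, 39.3 and 38.6 against 11.2, 13.8 and 10.4 (-1.63 ± 0.13). Mthfd2, the step between them, was at 50.0, 52.0 and 51.1 against 46.2, 44.5 and 46.4. The Mthfd2 libraries of the 2 states did not overlap, but the difference did not pass the test (-0.16 ± 0.11, adjusted p = 0.301), and both states were above osteogenic day 7, at 16.9, 16.6 and 20.3 RPKM. At matched day 7 Shmt2 was lower in adipogenic cells (-0.77 ± 0.12), Mthfd2 was higher (1.31 ± 0.11), and Aldh1l2 did not pass (-0.02 ± 0.13, adjusted p = 0.945).

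Aldh18a1, which starts proline synthesis from glutamate, had the lowest difference of the 44 members between adipogenic cells and osteogenic day 15. It stood at 15.4, 19.8 and 18.4 RPKM at day 0, 32.9, 30.5 and 37.0 on osteogenic day 7, 53.4, 47.8 and 44.1 on day 15, and 11.1, 11.6 and 9.44 in adipogenic cells. The adipogenic level was lower than osteogenic day 15 by 2.08 ± 0.11 (log2 difference -2.08, adjusted p = 2.05e-13) and lower than osteogenic day 7 by 1.56 ± 0.11 (-1.56, adjusted p = 3.16e-11). Against day 0 it was -0.69 ± 0.11, a call lost by median-ratio rescaling (-0.10). Pycr1, a later enzyme of proline synthesis, was at 0.476 to 1.83 RPKM in all vehicle libraries. Gpt2, the mitochondrial alanine transaminase, and Cth, the last enzyme of cysteine synthesis, were higher in adipogenic cells. Gpt2 had 44.4, 40.5 and 38.9 RPKM there against 24.8, 21.4 and 23.1 on osteogenic day 15 (0.81 ± 0.11), and Cth had 6.64, 6.40 and 4.85 against 0.871, 1.25 and 1.14 (1.73 ± 0.23, adjusted p = 1.27e-06).

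The transporters were low, apart from Slc3a2, the shared heavy chain of several amino acid exchangers. Slc3a2 was at 16.1, 17.0 and 15.9 RPKM on osteogenic day 7, 42.9, 40.8 and 39.7 on osteogenic day 15, and 42.9, 52.1 and 38.3 in adipogenic cells. Both late states lay above day 7 and overlapped each other, with rises of 1.28 ± 0.14 and 1.38 ± 0.14. Its light chains were at lower levels: Slc7a5 (leucine exchange) was at 3.22 to 6.60 RPKM and Slc7a11 (cystine import) at 2.07 to 5.34 in the vehicle libraries. Slc7a5 was called above day 0 on osteogenic day 15 (0.64 ± 0.16, adjusted p = 0.00147). In adipogenic cells it was also called above day 0 (0.41 ± 0.16, adjusted p = 0.0243), a call lost on leaving out single libraries. The day 0 level of Slc7a5 lay below the receptor background. Against osteogenic day 7 it passed in neither late state (0.36 and 0.13). Slc7a11, whose promoter holds 2 ATF4-type matches, passed the test in none of the 3 comparisons with day 0 on the deposited scale, and the other settings differed. In adipogenic cells Slc7a11 was called above day 0 by median ratios (0.87), quantile normalization (1.49), a fit on only the libraries compared (0.36), background subtraction (2.37) and in the VD3 libraries (0.71). On osteogenic day 15 its difference of -0.11 became 0.86 with quantile normalization and 1.97 with background subtraction, and on osteogenic day 7 it became 0.61 and 1.67, all called. At matched day 7 Slc7a11 was higher in adipogenic than in osteogenic cells on the deposited scale (0.74 ± 0.22, adjusted p = 0.0105). That call was lost without osteogenic day 7 replicate 1 (0.63). Against osteogenic day 15, 0 of 5 tested transporters were called in adipogenic cells, with 1 higher and 1 lower at an unadjusted p under 0.05 with limma.

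The aminoacyl-tRNA synthetases, which load amino acids onto tRNA, changed in 1 direction. All 8 tested members of this role were higher than day 0 on osteogenic day 7, on osteogenic day 15 and in adipogenic cells, and all 8 were higher on osteogenic day 15 than on day 7. In the VD3 libraries the osteogenic day 7 difference of Sars from day 0 was 0.30 and not called (adjusted p = 0.103). Aars, for alanine, was at 26.0, 30.8 and 26.6 RPKM at day 0, 52.7, 44.5 and 61.7 on osteogenic day 7, 120, 132 and 131 on day 15, and 61.3, 58.9 and 62.6 in adipogenic cells. Osteogenic day 15 exceeded every other vehicle library, and adipogenic cells were lower than it (-1.05 ± 0.11, adjusted p = 1.72e-08).

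Sars, for serine, was the most abundant synthetase on the RPKM scale, at 113, 111 and 106 at day 0 and 430, 426 and 443 on osteogenic day 15. Adipogenic cells had 215, 184 and 240, which overlapped osteogenic day 7 (184, 131 and 196). Nars, for asparagine, had 161, 172 and 157 on osteogenic day 15 and 87.5, 85.8 and 97.5 in adipogenic cells. Of the 8, Aars, Gars, Mars, Nars, Sars and Yars were lower in adipogenic cells than on osteogenic day 15, and Eprs (-0.25 ± 0.10, adjusted p = 0.0568) and Wars (0.04 ± 0.12, adjusted p = 0.826) did not pass. The Gars difference of -0.30 ± 0.07 was -0.07 and not called after median-ratio rescaling.

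The secreted and cell-surface members had no common order. Vldlr, a lipoprotein receptor that ATF4 raises in stress, was at 5.47, 5.15 and 5.49 RPKM on osteogenic day 7, 16.8, 14.9 and 12.6 on day 15, and 28.8, 29.7 and 27.4 in adipogenic cells (0.92 ± 0.19 above day 15, adjusted p = 0.000353). Stc2, a secreted glycoprotein, had 3.52, 4.28 and 5.02 RPKM on osteogenic day 15 and 0.442, 1.10 and 0.681 in adipogenic cells (-1.61 ± 0.18, adjusted p = 1.02e-07). The 2 genes differed between these states in opposite directions. Gdf15, a secreted stress hormone, was at 7.15, 8.73 and 12.5 RPKM on osteogenic day 15 and at 15.3, 16.1 and 17.7 in adipogenic cells (0.76 ± 0.19, adjusted p = 0.00249). Fgf21, the other stress hormone of the list, reached at most 2.05 RPKM in any vehicle library.

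The endoplasmic reticulum genes were read apart from the ATF4 type. Hspa5 (BiP), the main chaperone of the organelle, was at 465, 458 and 476 RPKM at day 0, 615, 545 and 515 on osteogenic day 7, 1236, 1288 and 987 on osteogenic day 15, and 1575, 1563 and 1569 in adipogenic cells. Both late states lay above the early ones, by 1.06 ± 0.13 (osteogenic day 15) and 1.49 ± 0.13 (adipogenic) against osteogenic day 7. Adipogenic cells were 0.43 ± 0.13 above osteogenic day 15 (adjusted p = 0.00904), a call lost without osteogenic day 15 replicate 3 (0.31). Dnajb9, a BiP cofactor induced through XBP1, was at 29.8, 35.5 and 28.2 RPKM on osteogenic day 15 and 86.5, 85.4 and 87.8 in adipogenic cells (1.45 ± 0.12, adjusted p = 4.41e-10).

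Hsp90b1 (GRP94) and Pdia4, a disulfide isomerase, were higher in adipogenic cells than in either osteogenic state. Hsp90b1 was at 434, 502 and 408 RPKM on osteogenic day 15 and 657, 646 and 668 in adipogenic cells, and Pdia4 at 170, 199 and 174 against 283, 263 and 254. Neither passed the test between osteogenic days 7 and 15 (0.22 ± 0.11 and -0.12 ± 0.11, adjusted p = 0.252 and 0.663). Xbp1 was at 51.7, 65.4 and 59.6 against 109, 107 and 102 RPKM in the same groups (0.84 ± 0.10, adjusted p = 3.73e-07). RPKM summed over a symbol does not separate the spliced, active form of Xbp1 mRNA.

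Herpud1, which takes part in degradation of misfolded proteins, was the 1 endoplasmic reticulum member with its highest vehicle mean on osteogenic day 15. It was at 26.9, 19.3 and 20.3 RPKM on osteogenic day 7, 61.9, 58.2 and 55.0 on osteogenic day 15, and 50.1, 54.3 and 45.0 in adipogenic cells. The rise over the osteogenic days was 1.37 ± 0.12 (adjusted p = 5.16e-08), and the difference between the late states was -0.23 ± 0.12 (adjusted p = 0.172). That difference changed sign with median-ratio rescaling and in the VD3 libraries. With VD3 the means of Herpud1 were 39.1 RPKM on osteogenic day 15 and 57.3 in adipogenic cells. All 6 endoplasmic reticulum members were higher in adipogenic cells than at day 0, and 4 of 6 were higher on osteogenic day 15 than at day 0.

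**Figure D3:**
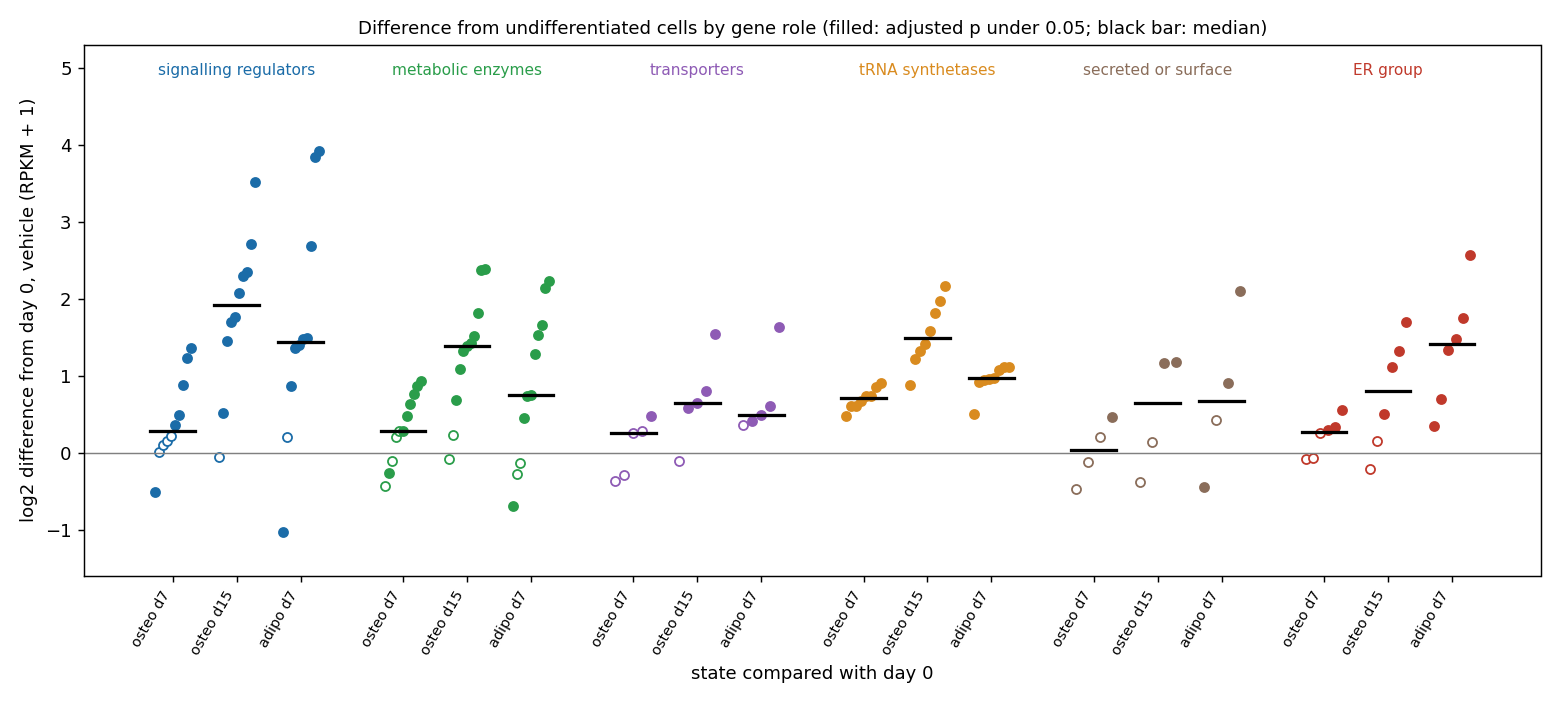
Log2 difference from day 0 (y axis) of each tested member (points, filled where the adjusted p is under 0.05) in vehicle-treated cells on osteogenic day 7, osteogenic day 15 and adipogenic day 7, grouped by role, with a bar at each median. All 8 synthetases are filled and above 0 in each of the 3 states, and all 6 endoplasmic reticulum points are in adipogenic cells.

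Adipogenic day 7 was set against each osteogenic time, since day 7 matches the time in culture and day 15 is the later osteogenic stage. At matched day 7, 27 members were higher and 5 lower in adipogenic cells, against 12.4% and 25.4% of all genes. The lower ones were Aldh18a1, Shmt2, Stc2, Ddit4 and Pycr1, of which the Ddit4 and Pycr1 calls were lost on leaving out single libraries: Ddit4 without replicate 1 or 3 of either group (-0.50 to -0.46) and Pycr1 without any 1 library except osteogenic day 7 replicate 3 (-0.63 to -0.46).

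Against osteogenic day 15, 13 members were higher and 17 lower in adipogenic cells, where 12.1% of all genes were higher and 26.3% lower. The parts of the time in culture and of the medium in this comparison cannot be told apart, and adipocyte and osteoblast markers moved with it as given above; their part was not tested. Among the ATF4 type 8 were higher and 17 lower, and among the endoplasmic reticulum genes 5 were higher and 0 lower, with 0 lower at an unadjusted p under 0.05 with limma. All 17 lower calls were kept with each library left out, and 14 under both rescalings. The members' split was 14 higher and 14 lower by median ratios and 14 and 18 after quantile normalization, and that of all genes moved from 2554 higher and 5552 lower to 3489 and 3965 by median ratios. Of the higher calls, 10 were kept with each library left out. The others were Hspa5 (above), Fgf21, and Trib3 at 0.40 ± 0.15, which was lost without osteogenic day 15 replicate 1 (0.25) and without adipogenic replicates 1 (0.41) or 2 (0.32).

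**Figure D4:**
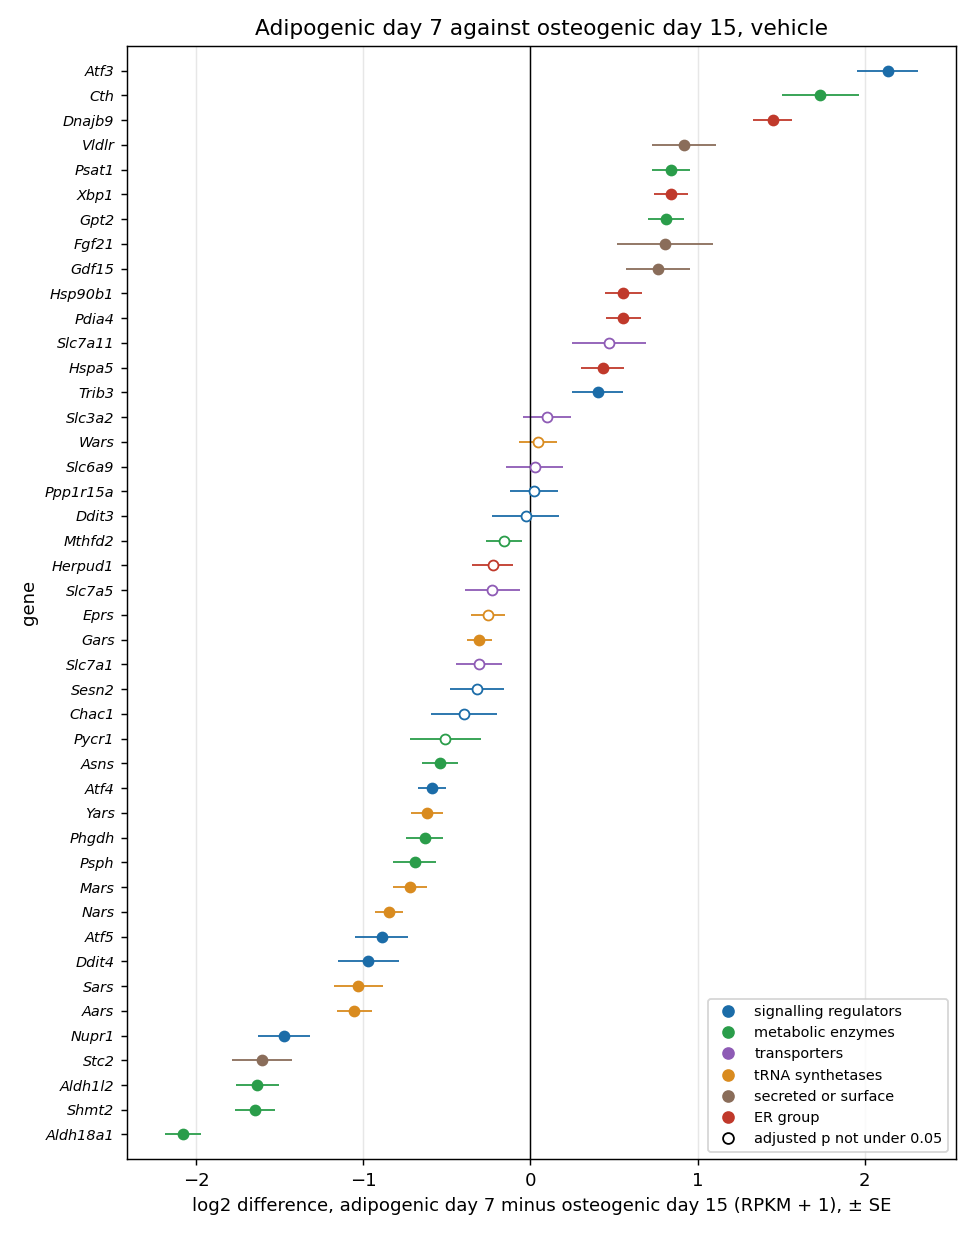
Log2 difference of adipogenic day 7 from osteogenic day 15 in vehicle-treated cells for each tested member with its standard error, ordered by size and coloured by role, with called genes filled. The points run from Aldh18a1 at -2.08 to Atf3 at 2.14, and 5 of the 6 endoplasmic reticulum genes lie above 0.

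Members with the ATF4-type promoter letters were found on both sides of this split. Of the 12 tested members of the ATF4 type with the letters, 4 were higher and 5 lower in adipogenic cells than on osteogenic day 15, with a median of -0.35. Of the 21 with a window but without the letters, 3 were higher and 10 lower, with a median of -0.32. Between osteogenic days 7 and 15, 9 of the 12 with the letters and 17 of the 21 without were higher (medians 1.19 and 0.87). Of all genes, 12.1% were higher and 26.3% lower in adipogenic cells than on osteogenic day 15, and 6.87% were higher on osteogenic day 15 than on day 7. No test was made of these counts.

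Across the 24 libraries the ATF4-type members followed the mean of the other members of their type with a median Pearson r of 0.84, ranging from -0.14 to 0.97. Gars (0.97), Mthfd2 (0.96), Eprs (0.96) and Asns (0.95) followed it most closely, and Ddit4 (-0.14), Gdf15 (-0.14), Fgf21 (0.02) and Pycr1 (0.06) least. The endoplasmic reticulum members had r of 0.65 to 0.93 with the mean of the others. Atf3 (0.97), Gpt2 (0.94), Psat1 (0.94) and Vldlr (0.94) followed the endoplasmic reticulum mean. The means of the 2 types had an r of 0.70. These values describe libraries that share groups and depth, and carry no test.

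Related genes outside the list were read in the same fits, from lists of general knowledge. Of all genes, 17.5% were higher and 53.4% lower on osteogenic day 15 than at day 0. In adipogenic cells against osteogenic day 15 the shares were 12.1% and 26.3%. No test was made of the counts of these lists. The 12 other cytosolic synthetases followed the members: 10 were higher on osteogenic day 15 than at day 0, and 11 were lower in adipogenic cells than on osteogenic day 15, Kars by -1.24 ± 0.09 and Iars by -1.13 ± 0.11. The 16 mitochondrial synthetases did not share that order, with 3 higher in adipogenic cells, among them Iars2 by 0.72 ± 0.08, and 1 lower. All 7 mitochondrial chaperones and proteases were higher on osteogenic day 15 than at day 0. Hspa9, the mitochondrial Hsp70, averaged 145 RPKM at day 0, 173 on osteogenic day 7, 433 on osteogenic day 15 and 600 in adipogenic cells.

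Among 18 other endoplasmic reticulum genes, 7 were higher and 5 lower in adipogenic cells than on osteogenic day 15. The shares of all genes in this comparison, which holds for the counts below too, were 12.1% and 26.3%. Ero1l, the oxidase that drives disulfide formation, averaged 25.2 ± 8.44 RPKM on osteogenic day 15 and 227 ± 40.0 in adipogenic cells (SD, n = 3; log2 difference 3.16 ± 0.21). Of the eIF2 kinases, their partners and related factors (17 genes), 5 were higher and 10 lower in the same comparison, with Nfe2l2 at -1.35 ± 0.13 and Impact, an inhibitor of the amino acid sensing kinase, at -1.005 ± 0.173. Of 10 other amino acid transporters 2 were higher and 4 lower, and Slc1a5, the glutamine carrier, was the widest, at a mean of 2.61 RPKM on osteogenic day 15 and 76.7 ± 6.76 in adipogenic cells (4.43 ± 0.17). Of 9 cytosolic heat shock genes 2 were higher and 7 lower.

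VD3 for 24 h raised 4 and lowered 7 of the 44 tested members at day 0 (3.98% and 11.0% of all genes). On osteogenic day 7 it raised 4 and lowered 3 (2.91% and 2.35%). It raised 1 and lowered 1 on osteogenic day 15 (0.526% and 0.246%), and raised 1 and lowered 0 in adipogenic cells (1.51% and 0.574%), where 3 were lower at an unadjusted p under 0.05 with limma. At day 0 the split of 4 and 7 became 5 and 1 by median ratios and 5 and 4 by quantile normalization. Of the 7 lower calls, 0 were kept under both rescalings and 2 after background subtraction. Of the 4 higher calls, 3 and 4 were kept in these settings. Among the day 0 libraries VD3 replicate 2 alone had 38.8 M reads and a receptor background of 0.456 RPKM. The vehicle libraries had 7.12 to 9.72 M reads and 3.505 to 4.93 RPKM. The part of this difference in the VD3 calls was not tested. The osteoblast markers summed to 413 to 450 RPKM with VD3 on osteogenic day 15 and to 774 to 849 with vehicle, and to 43.4 to 55.1 against 130 to 153 in adipogenic cells. The stromal markers summed to 575 to 626 RPKM with VD3 at day 0 and to 1119 to 1124 with vehicle. The part of these markers in the VD3 results was not tested. The median of all genes at day 0 was -0.27 and moved to -0.08 and 0.01. With each library left out, 1 higher and 1 lower call at day 0 were kept throughout, those of Gdf15 and Atf3. The other calls at day 0 were Ddit4, Nupr1 and Psph (higher) and Chac1, Aldh1l2, Aldh18a1, Hspa5, Hsp90b1 and Xbp1 (lower), each lost without at least 1 library.

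The difference between the VD3 effects of 2 states was tested as well. The effect on 2 members was higher on osteogenic day 7 than at day 0, and on 0 lower (1.85% and 0.702% of all genes; 6 lower at an unadjusted p under 0.05 with limma). In adipogenic cells 0 were higher and 2 lower than at day 0 (2.46% and 1.01%; 5 higher unadjusted), and 1 was higher and 1 lower than on osteogenic day 7 (0.967% and 0.853%). Between the osteogenic days 0 differed (0.0521% and 0.133%; 0 higher and 7 lower unadjusted).

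Gdf15 was called higher with VD3 at day 0 and on osteogenic day 7. At day 0 it was 9.90, 8.82 and 6.47 RPKM with vehicle and 22.7, 24.7 and 29.4 with VD3, with no overlap (1.51 ± 0.19, adjusted p = 8.67e-06). On osteogenic day 7 it was 9.40, 9.05 and 10.6 against 30.7, 25.3 and 18.5, again with no overlap (1.25 ± 0.19). The Gdf15 effect was 0.60 on osteogenic day 15 (adjusted p = 0.304) and 0.28 in adipogenic cells (adjusted p = 0.963). The effect in adipogenic cells was smaller than that at day 0 by a test of the difference (-1.23, adjusted p = 0.0120). Against the effect on osteogenic day 7, neither osteogenic day 15 (-0.65, adjusted p = 0.621) nor adipogenic cells (-0.97, adjusted p = 0.0777) passed that test.

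Ddit4 rose with VD3 most in adipogenic cells, from 3.60, 4.58 and 3.80 RPKM to 13.8, 9.48 and 15.6 (1.46 ± 0.18, adjusted p = 1.61e-05). The groups did not overlap, and the VD3 libraries reached or passed the day 0 vehicle level of 8.24 to 9.80. It also rose on osteogenic day 7 (0.89 ± 0.18, adjusted p = 0.00353), where the vehicle level was 5.54 to 6.57 RPKM. At day 0 the value was 0.66, a call lost without vehicle replicate 2 (0.59) or VD3 replicate 3 (0.58), and on osteogenic day 15 it was 0.66 (adjusted p = 0.150). The difference between the effect in adipogenic cells and that at day 0 (0.81, adjusted p = 0.0911) or on osteogenic day 7 (0.58, adjusted p = 0.431) did not pass.

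On osteogenic day 7 VD3 also raised Stc2, from 1.86, 2.51 and 2.33 to 3.99, 5.03 and 5.37 RPKM (0.84 ± 0.18, adjusted p = 0.00476), and lowered Mthfd2, from 16.9, 16.6 and 20.3 to 12.1, 12.3 and 10.5 (-0.58 ± 0.11, adjusted p = 0.00126). Neither pair of groups overlapped. The Stc2 call was lost by quantile normalization (0.63). The Atf4 value there was -0.28 ± 0.08 (adjusted p = 0.0498), a call lost with 5 of the 6 libraries left out singly and under both rescalings (-0.40 and -0.19): without each vehicle replicate (-0.32 to -0.25) and without VD3 replicates 2 (-0.22) and 3 (-0.24). Nupr1 (0.56) and Shmt2 (-0.48) were the other 2 calls of that state, and Shmt2 was lost without vehicle replicate 2 (-0.44) or VD3 replicates 2 (-0.44) or 3 (-0.47). The Nupr1 call was lost without vehicle replicates 2 (0.47) or 3 (0.57) or VD3 replicates 1 (0.44) or 2 (0.48).

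On osteogenic day 15 Stc2 was 3.52, 4.28 and 5.02 RPKM with vehicle and 7.73, 8.40 and 8.56 with VD3, and Herpud1 was 61.9, 58.2 and 55.0 against 36.1, 37.1 and 43.9. Both pairs of groups were apart, at 0.82 ± 0.18 (adjusted p = 0.0281) and -0.57 ± 0.12 (adjusted p = 0.0240). Each call was lost without 5 of the 6 libraries: the Stc2 call without any except vehicle replicate 3 (0.71 to 0.86), and the Herpud1 call without any except VD3 replicate 3 (-0.61 to -0.52). On osteogenic day 7 Herpud1 was 26.9, 19.3 and 20.3 RPKM with vehicle and 20.7, 23.9 and 19.0 with VD3, which overlapped.

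At day 0 Atf3 was 1.67, 3.80 and 2.77 RPKM with vehicle and 1.29, 0.548 and 0.824 with VD3 (-0.97 ± 0.18, adjusted p = 0.000777). The level lay below the library's own receptor background in all of these except vehicle replicate 2 (background 3.505 RPKM) and VD3 replicate 2 (0.456 RPKM). The value was -0.08 and not called after that background was subtracted. Hspa5 was -0.48 at day 0 with VD3, a call lost by median-ratio rescaling (-0.23) and without vehicle replicate 3 (-0.47). In adipogenic cells, where the endoplasmic reticulum genes were highest, VD3 called none of the 6, with 0 higher and 1 lower at an unadjusted p under 0.05 with limma.

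**Figure D5:**
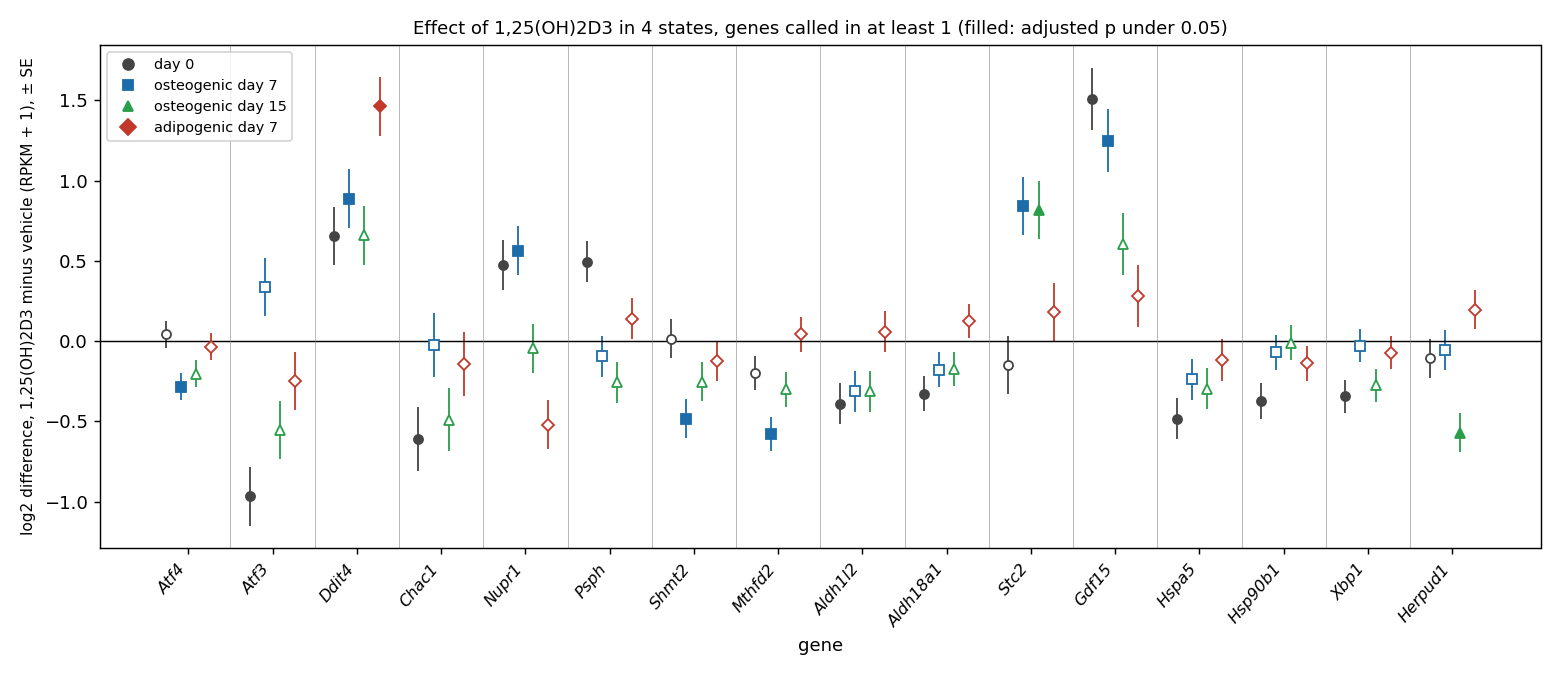
Log2 difference of VD3 from vehicle with its standard error in each of the 4 states for each member called in at least 1 of them. Gdf15 is above 1 at day 0 and on osteogenic day 7, and Ddit4 is highest in adipogenic cells at 1.46.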

How the data were processed

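RNA of 24 libraries was sequenced after ribosomal depletion with a directional kit, per the labels' protocols. Reads were aligned to mm9 with TopHat, per the submitters' processing notes; the quantifier and its annotation are not given in the sources used here. The authors deposited RPKM for 30795 transcripts per library, which were summed by symbol here. The 40 transcripts (25 symbols) whose names had become dates were left out, leaving 25385 genes. No counts were used, so depth was estimated from the steps between low RPKM values of olfactory receptor genes, and gives the scale of counting error only.

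The 21097 genes that reached 1 RPKM in 3 or more libraries were fitted as log2(RPKM + 1) with limma 3.58.1 (R 4.3.3; trend and robust options) in a model of 8 groups over all 24 libraries, adjusted by Benjamini-Hochberg over all tested genes of a comparison. Adjusted p-values are from this fit, with calls under 0.05. Group tables, promoter searches and figures used Python 3.11.15, numpy 2.4.6, pandas 2.3.3 and matplotlib 3.10.9. The code was tested on simulated data. Named genes outside the members are the 2 of each related list with the largest called change in a comparison. Values in every library are given for 10 members named in that rule and for others added after their values were seen. The members and lists were chosen with earlier results of these data known. Alternatives were another pseudocount, filters, rescalings, background subtraction, a replicate term, VD3 libraries in place of vehicle, and each library left out.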

Additional observations from a re-analysis of the deposited data

Results flagged for a closer look

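In 6 cases the effect of VD3 on a member differed between 2 states by a test of the difference itself (limma, Benjamini-Hochberg adjusted over all tested genes). Groups of 3 libraries are too small for a check of single outlying libraries. The values below are differences between 2 log2 effects.

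Nupr1 differed in adipogenic cells by -0.99 against day 0 (adjusted p = 0.0108) and by -1.08 against osteogenic day 7 (adjusted p = 0.00733). The effect in adipogenic cells was not tested against that on osteogenic day 15. Its own effects were 0.47 at day 0, 0.56 on osteogenic day 7, -0.04 on osteogenic day 15 and -0.52 in adipogenic cells (adjusted p = 0.107 for the last). The day 0 call was lost without vehicle replicate 2 (0.29) or 3 (0.54) or VD3 replicate 2 (0.49) or 3 (0.45), and the osteogenic day 7 call without vehicle replicate 2 (0.47) or 3 (0.57) or VD3 replicate 1 (0.44) or 2 (0.48).

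Gdf15 had a smaller effect in adipogenic cells than at day 0, by -1.23 (adjusted p = 0.0120). Mthfd2 had a higher effect in adipogenic cells than on osteogenic day 7, by 0.62 (adjusted p = 0.0337), and its own value was -0.58 on osteogenic day 7. The Mthfd2 difference was lost without replicate 3 of either osteogenic day 7 group, any adipogenic vehicle replicate or adipogenic VD3 replicates 2 or 3 (0.53 to 0.63), and by median ratios (0.64), a fit on only the libraries compared (0.62) and background subtraction (0.65). Stc2 had a higher effect on osteogenic day 7 than at day 0, by 0.99 (adjusted p = 0.0419), at day 0 levels below the receptor background. Atf3 had a higher effect on osteogenic day 7 than at day 0, by 1.31 (adjusted p = 0.00701), and was not called with quantile normalization (0.62), in a fit on only the libraries compared (1.31, adjusted p = 0.152) or with the receptor background subtracted (0.40). The Stc2 difference was lost without replicates 2 or 3 of either day 0 group, any osteogenic day 7 vehicle replicate or osteogenic day 7 VD3 replicates 2 or 3 (0.897 to 1.053). It was also lost with a pseudocount of 0.1 (1.32), a filter at 5 RPKM (0.99, adjusted p = 0.0513), median ratios (0.76), quantile normalization (0.335), a fit on only the libraries compared (0.99, adjusted p = 0.233) and background subtraction (0.60).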

How the results depend on the processing

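Calls of single members kept their direction and side of the threshold in 1318 of 1452 cases with 1 library left out and in 2244 of 2427 cases under other settings. Lone libraries were assumed to vary like the other groups, and the cause of the changes below was not tested. Counts of higher and lower members ranged, with single libraries left out, over 19 to 24 and 0 to 2 for osteogenic day 7 against day 0, 35 to 36 and 0 to 1 for osteogenic day 15, 35 to 36 and 2 to 3 for adipogenic cells, 30 to 33 and 0 between osteogenic days, 25 to 28 and 3 to 6 for adipogenic against osteogenic day 7, and 11 to 12 and 17 to 18 against day 15. For VD3 they ranged over 1 to 4 and 2 to 9 at day 0, 3 to 5 and 1 to 3 on osteogenic day 7, 0 to 1 and 0 to 1 on day 15, and 1 and 0 in adipogenic cells. Differences between VD3 effects ranged over 1 to 2 and 0 to 1 (osteogenic day 7 minus day 0), 0 to 2 and 2 (adipogenic minus day 0), 0 and 0 (between osteogenic days), and 0 to 1 and 1 to 3 (adipogenic minus osteogenic day 7). With the receptor background subtracted, 37 members were higher on osteogenic day 7 than at day 0 (24 otherwise) and 0 lower, beside 8706 of 13668 genes higher with a median of 0.67, 1 was lower in adipogenic cells than at day 0, 2 were lower with VD3 at day 0 and 1 on osteogenic day 7, and 0 were called on day 15. The 2 lower calls of osteogenic day 7 against day 0 became 1 with a filter at 5 RPKM, quantile normalization, the replicate block or a fit on only the libraries compared, and 0 with median ratios or with VD3 replicate 2 alone for day 0 (the lone library). Lower calls of osteogenic day 15 became 1 with quantile normalization or VD3 libraries. Lower calls of adipogenic cells against day 0 (3) became 1 with median ratios and 0 with VD3 libraries or the lone library, those between osteogenic days became 2 with VD3 libraries, and those against osteogenic day 7 (5) became 3 with median ratios. VD3 calls at day 0 became 2 higher and 4 lower in a fit on only the libraries compared, 1 lower with median ratios and 4 lower with quantile normalization. VD3 lower calls on osteogenic day 7 became 5 with the filter at 5 RPKM and 1 in the narrow fit. On osteogenic day 15 the higher call became 0 with a pseudocount of 0.1, either rescaling and the narrow fit, and the lower call 0 with median ratios and the narrow fit. The effect differences of osteogenic day 7 minus day 0 became 1 higher with pseudocount 0.1, the filter at 5 RPKM or median ratios, 0 with quantile normalization, the narrow fit or background subtraction, and 3, 2 and 1 lower with median ratios, quantile normalization and subtraction. Those of adipogenic minus osteogenic day 7 became 2 higher and 3 lower with the filter at 5 RPKM and 0 higher with median ratios, the narrow fit or subtraction. Some uncalled or low members changed sign. On osteogenic day 7 against day 0 these were Trib3 (-0.0156, VD3 libraries), Chac1 (-0.0302 without day 0 vehicle replicate 1, up to 0.28 without replicate 2), Asns (-0.0116, lone library), Phgdh (0.15 with median ratios, 0.00844 with subtraction), Ddit4 (0.20, subtraction), Psph (-0.11 and -0.21, VD3 and lone) and Slc7a11 (0.61 quantile, 1.67 subtraction, 0.20 lone). On osteogenic day 15 they were Slc7a11 (0.19 median ratios, 0.86 quantile, 1.97 subtraction, 0.21 VD3, 0.82 lone) and Sesn2 (-0.0223 VD3, -0.20 lone). In adipogenic cells against day 0 they were Gdf15 (-0.33, -0.29) and Nupr1 (-0.12, -0.10) with VD3 and lone libraries, and Stc2 (0.53 quantile, 0.19 subtraction). With VD3 libraries Ddit4 (0.0565) and Gdf15 (-0.27) changed sign against osteogenic day 7. Against osteogenic day 15 Ddit3 was 0.21 (median ratios), 0.0591 (quantile), 0.79 (VD3), 0.19 without osteogenic day 15 replicate 1 0.0146 without adipogenic replicate 2 and -0.24 without osteogenic day 15 replicate 3, and Herpud1 was 0.0104 (median ratios) and 0.54 (VD3). Chac1 with VD3 at day 0 was 0.20 after subtraction.

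Whether the replicate numbers pair the libraries is not settled by these values. Of 84 pairs of libraries with the same number in different groups, 13 had correlated deviations from their group means over 0.1 (range -0.35 to 0.44), and 12 of 24 libraries correlated best with their own number. Between the VD3 libraries of day 0 and osteogenic day 7, replicates 1, 2 and 3 had 0.42, 0.44 and -0.04. Between those of day 0 and adipogenic cells, replicate 2 had -0.35. Deviations may also carry differences in depth. With the replicate block, the lower calls of osteogenic day 7 against day 0 went from 2 to 1, and no other count of members moved by more than 1.5 times.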

Other observations

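The 8 genes outside the list whose levels were most like the mean of the tested ATF4-type members over the 24 libraries, among 4069 candidates with at least 20 RPKM in their highest group, were Eif3c (Pearson r 0.955), Rlim (0.950), Cyb5r1 (0.945), Thumpd3 (0.935), Ddx3x (0.931), Cops5 (0.928), Nmt1 (0.927) and Lonp1 (0.924). The values describe libraries that share groups and depth. Eif3c, a subunit of a translation initiation factor, averaged 46.0 RPKM at day 0, 52.2 on osteogenic day 7, 94.4 on osteogenic day 15 and 85.0 in adipogenic cells with vehicle. Lonp1, the protease of the mitochondrial matrix, averaged 16.8, 20.7, 55.8 and 56.4 RPKM in the same states.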
